A study of Mus musculus with 12 samples.

Results

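Genes that the fasting receptor of fat metabolism controls in liver were examined in mouse small intestine, as 7 named genes: Bdh1, Pdk4, Angptl4, Creb3l3, Vnn1, Ucp2 and Aldh3a2. They were taken by gene symbol from the deposited array table, with the brightest probe set per gene by its mean over all arrays. For 6 of the 7 a probe set naming a single gene was found, and each of the 6 had only 1 such probe set, so no choice between probe sets was needed. These 6 are among 19937 genes with such a probe set, and all 6 were bright enough to be among the 11962 genes tested. The level of Ucp2, a mitochondrial carrier, was not analysed here. The mice were male wild-type FVB animals with a labelled age of 8 weeks, and 6 were fed the low P/S diet (few polyunsaturated relative to saturated fatty acids) and 6 a control high-fat diet, in each case for 8 weeks. Each array carried total RNA of small intestine, and the design text describes the arrays of a diet as biological replicates. The labels leave out the intestinal segment, the time of dissection, the last feeding and the fat content of the low P/S diet.

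Peroxisome proliferator-activated receptors (PPARs) are nuclear receptors that bind fatty acids and, paired with a retinoid X receptor, switch on genes for burning fat. In the fasted liver the alpha form drives fatty acid oxidation and the making of ketone bodies. In the small intestine, fatty acids absorbed from a meal also reach these receptors, and enterocytes express many of the same genes. The 6 measured genes stand at different points of that response. Aldh3a2 encodes the fatty aldehyde dehydrogenase, which turns long-chain aldehydes into fatty acids. Bdh1 encodes the mitochondrial enzyme that interconverts acetoacetate and beta-hydroxybutyrate. Pdk4 encodes a kinase that switches off pyruvate dehydrogenase and so spares glucose. Angptl4 encodes a secreted inhibitor of lipoprotein lipase, Creb3l3 a membrane-bound transcription factor of liver and intestine, and Vnn1 a pantetheinase that releases pantothenate and cysteamine.

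All values are array intensities on a linear scale, with medians and geometric means taken on the log2 scale over 6 arrays. Each difference is the low P/S mean less the control mean in log2 units, with the standard error from limma, and each adjusted p is a Benjamini-Hochberg value over all 11962 genes. Of the 6 genes, 2 rose on the low P/S diet, Aldh3a2 and Pdk4, none fell, and 4 did not pass at an adjusted p under 0.05. Over all genes tested 25.7% passed, 17.8% as higher and 7.87% as lower, and with quantile normalization 1775 genes were higher and 1543 lower in place of 2132 and 942. Beside these shares, 2 calls among 6 genes are no result about the set. The median difference of the 6 genes was 0.22, beside 0.02 over all genes tested. All 6 differences were positive, as were 55.8% of those over all genes. In whole tissue, fewer cells of a type and less RNA per cell cannot be told apart.

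**Figure D1:**
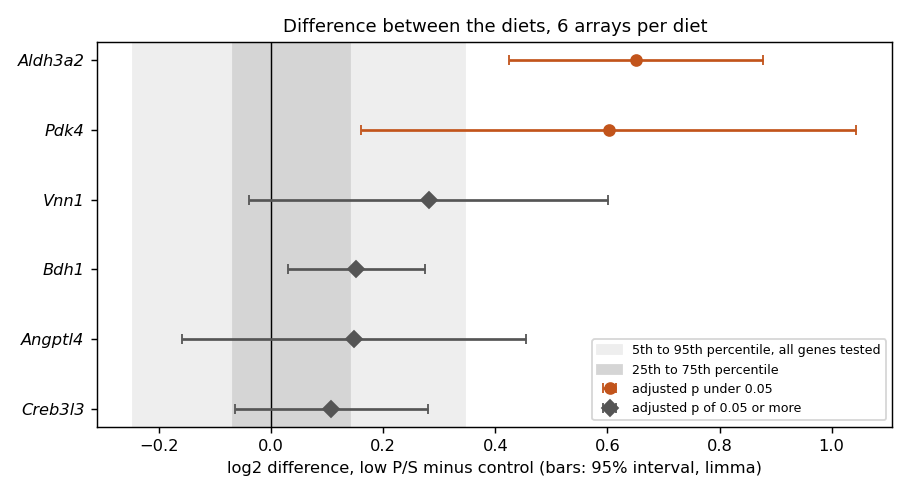
Log2 difference between the low P/S and control diets for the 6 measured genes (points) with 95% intervals from limma, over grey bands for the middle of all 11962 genes tested (25th to 75th and 5th to 95th percentile). Aldh3a2 at 0.65 and Pdk4 at 0.60 lie beyond the 95th percentile of 0.35, and the other 4 points lie inside the wider band.

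Aldh3a2 (probe set 10386652) separated the diets fully. Its intensity ran from 4241 through a median of 4809 to 5276 on the low P/S diet, and the control arrays ran from 2364 through a median of 2951 to 3878. Every low P/S array lay above every control array, a separation that 6.86% of all genes tested showed in this direction and 3.9% in the other. It was the only 1 of the 6 genes to separate. The geometric means were 4765 on the low P/S and 3035 on the control diet, a 1.57-fold rise (0.65 ± 0.11, 95% interval of the fold 1.34 to 1.84, adjusted p = 0.000525). By p it ranked 355 of 11962. The control arrays spread more than the low P/S arrays, with an SD of 0.12 on the low P/S and 0.29 on the control diet on the log2 scale, and control arrays 1 and 2 were the ones closest to the low P/S arrays.

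Pdk4 (probe set 10543017) varied widely within each diet. Its lowest, median and highest intensities were 940, 1473 and 2245 on the low P/S diet, against 640, 955 and 1468 on the control diet. The diets overlapped, with 3 of 6 low P/S arrays above the highest control array and 5 of 6 above the control median. Geometric means of 1505 on the low P/S and 991 on the control diet gave a 1.52-fold rise (0.60 ± 0.21, 95% interval of the fold 1.12 to 2.06, adjusted p = 0.0436). Its within-diet SD of 0.45 on the log2 scale stood at the 99.6th percentile of all genes tested, where the median was 0.11. The call was fragile. It was lost without any 1 of 8 of the 12 arrays, namely low P/S arrays 1, 2, 3 and 4 and control arrays 3, 4, 5 and 6, with adjusted p up to 0.105, and with quantile normalization (0.50, adjusted p = 0.0651).

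**Figure D2:**
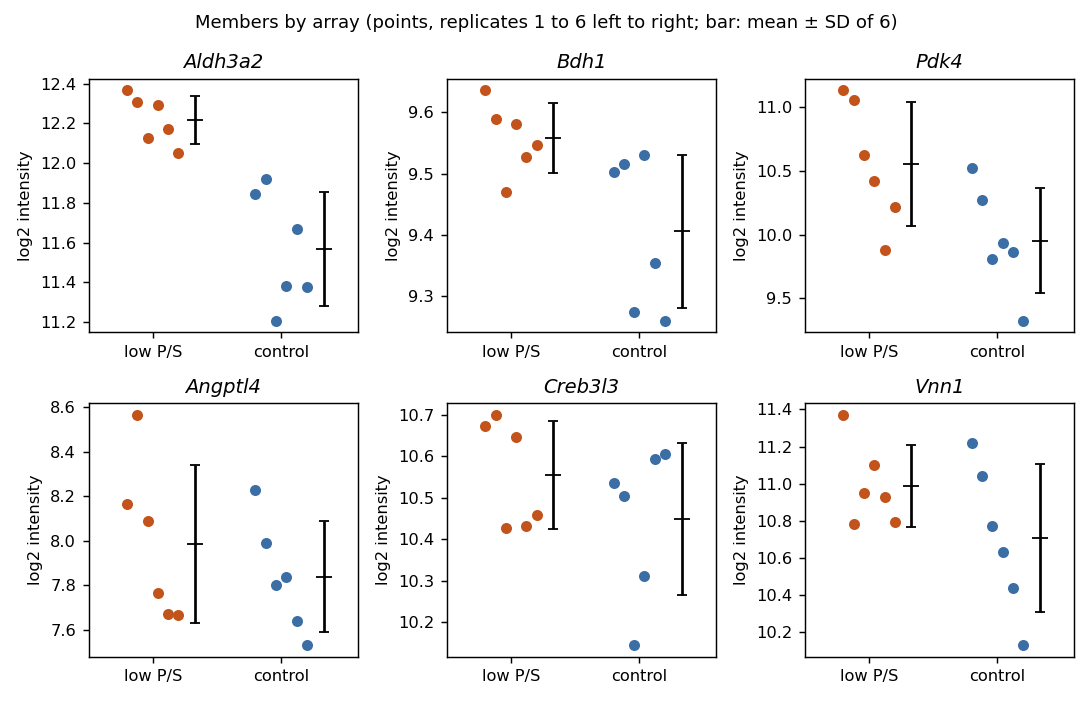
Log2 intensity of each measured gene on every array, low P/S arrays left of control arrays, with the mean and SD of 6 arrays beside them, each panel on its own axis that does not start at 0. Aldh3a2 shows no overlap, whereas Pdk4, Angptl4 and Vnn1 show a wide spread within each diet.

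Bdh1 (probe set 10434934), the ketone body enzyme of the set, was narrowly spread and just missed the threshold. Its intensities were 709 at the lowest, 757 at the median and 795 at the highest on the low P/S diet, and 613, 689 and 739 on the control diet. Of 6 low P/S arrays 4 lay above the highest control array. Geometric means of 754 on the low P/S and 678 on the control diet gave a difference of 0.15 ± 0.06 (1.11-fold, 95% interval 1.02 to 1.21, adjusted p = 0.0632 in limma). Leaving out control array 1, 2 or 4 brought it under the threshold, with a lowest adjusted p of 0.0409, and quantile normalization gave 0.07 (adjusted p = 0.238).

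Angptl4 (probe set 10450038) showed no separation. It had a lowest, median and highest intensity of 203, 243 and 379 among low P/S arrays and 185, 226 and 300 among control arrays. Only 1 low P/S array, array 2, lay above the highest control array. The difference of 0.15 ± 0.14 (adjusted p = 0.478) had a 95% interval of the fold from 0.896 to 1.37. Without low P/S array 2 the difference was 0.03 (adjusted p = 0.879). Its within-diet SD of 0.31 lay at the 98.8th percentile.

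Vnn1 (probe set 10362138) ran from 1764 through 1962 to 2648 on the low P/S diet and from 1121 through 1668 to 2385 on the control diet. All 6 low P/S arrays lay above the control median, and 4 control arrays lay below the lowest low P/S array. Control arrays 1 and 2 had the highest control values. The difference of 0.28 ± 0.15 (1.21-fold, 95% interval 0.973 to 1.52, adjusted p = 0.184) did not pass.

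Creb3l3 (probe set 10371054) had intensities of 1377, 1501 and 1664 at the lowest, median and highest low P/S array and of 1132, 1468 and 1558 among control arrays. The diets overlapped, and control arrays 3 and 4 lay below every low P/S array. The difference was 0.11 ± 0.08 (adjusted p = 0.354), with a 95% interval of the fold from 0.956 to 1.21.

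Unequal responses among the 6 genes were tested on the difference of log2 intensities within each array. The test was a two-sided exact permutation test with 924 possible arrangements, and p was adjusted over 15 pairs. Aldh3a2 rose more than Creb3l3, by 0.54, and more than Bdh1, by 0.50 (exact permutation p = 0.00216 each, the smallest the design allows, adjusted p = 0.0162). In both pairs the diets did not overlap. The difference of Pdk4 exceeded that of Angptl4 by 0.45 (exact permutation p = 0.00866, adjusted p = 0.0433). The other 12 pairs did not pass, including Aldh3a2 against Angptl4 (exact permutation p = 0.0173, adjusted p = 0.0649) and Aldh3a2 against Pdk4 (exact permutation p = 0.812, adjusted p = 0.888).

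Variation within the diets was then compared between genes, after subtracting each diet's mean. Pdk4 and Angptl4 moved together over the 12 arrays (Pearson r = 0.90, permutation p = 0.00031, adjusted over 15 pairs p = 0.00465; Spearman rho = 0.93, permutation p = 0.00029, adjusted p = 0.00435). The r was 0.87 within the low P/S arrays and 0.95 within the control arrays. Without the 2 arrays farthest in Pdk4, low P/S arrays 1 and 5, it was 0.92. In either diet arrays 1 and 2 had the highest values of both genes. Low P/S arrays 5 and 6 and control array 6 were lowest in both. The permutations, here and for Dbp below, took the arrays of a diet as interchangeable. Their p values therefore do not allow for an order that same-numbered arrays may share between the diets. Of the 15 pairs this was the only one that passed. Pdk4 with Vnn1 (r = 0.68, permutation p = 0.0139; rho = 0.54, permutation p = 0.0748), with Aldh3a2 (r = 0.64, permutation p = 0.017; rho = 0.69, permutation p = 0.00833) and with Bdh1 (r = 0.64, permutation p = 0.0189; rho = 0.63, permutation p = 0.0213) missed at an adjusted p of 0.0708 each for r. In all, 14 of 15 coefficients were positive. The share over all gene pairs was not computed, so this count is no result about the set. With quantile normalization the r of Pdk4 with Angptl4 was 0.89. That of Pdk4 was then 0.58 with Vnn1, 0.49 with Aldh3a2 and 0.29 with Bdh1, and that of Bdh1 with Aldh3a2 was -0.02.

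The clock output gene Dbp, a transcription factor whose level follows the time of day, was measured beside them because the times of dissection and feeding are not in the labels. Its intensity was 164 on the low P/S and 673 on the control diet (-2.04 ± 0.25, adjusted p = 4.90e-05). Within the diets, arrays with more Dbp had less Pdk4 (r = -0.77, permutation p = 0.00707; rho = -0.80, permutation p = 0.0058), less Angptl4 (r = -0.76, permutation p = 0.00975; rho = -0.84, permutation p = 0.00171) and less Vnn1 (r = -0.70, permutation p = 0.011; rho = -0.72, permutation p = 0.0149). The 4 arrays numbered 5 and 6 lay above their diet mean in Dbp and the other 8 below it, and the coefficients carry that gap. Adjusted over 6 genes, p was 0.0221 for each of the 3 Pearson coefficients. Without the array numbered 6 in each diet, the 2 farthest in Dbp, the r of Pdk4 was -0.76, that of Angptl4 -0.70 and that of Vnn1 -0.61, and the adjusted p values were 0.0777, 0.103 and 0.164, so the calls were lost without those arrays. Bdh1 (r = -0.50, rho = -0.52), Aldh3a2 (r = -0.44, rho = -0.59) and Creb3l3 (r = -0.05, rho = 0.00) did not pass (permutation p for r = 0.0952, 0.14 and 0.87, and for rho = 0.0826, 0.047 and 1, the adjusted p for rho being 0.0705 in Aldh3a2). The part of time of day or feeding in the diet differences was not tested.

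**Figure D3:**
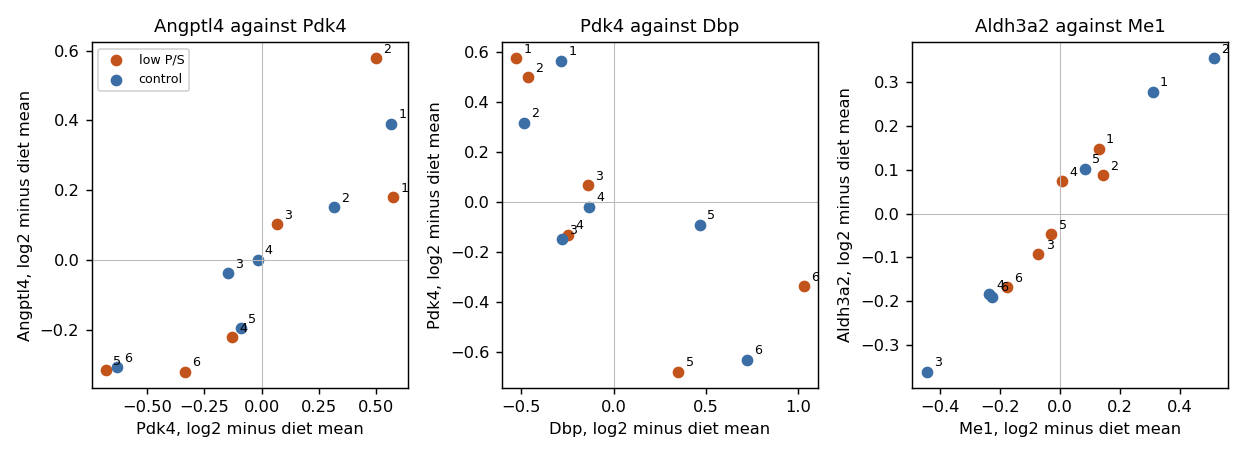
Log2 intensity minus the diet mean on the 12 arrays (numbered by replicate, low P/S and control in separate colours) for Angptl4 against Pdk4, Pdk4 against Dbp and Aldh3a2 against Me1. Angptl4 follows Pdk4 in either diet, and Pdk4 tends to be high where Dbp is low. Low P/S array 4 and control arrays 3 and 4 lie below their diet mean in both Dbp and Pdk4. Aldh3a2 follows Me1, which was picked as the gene nearest to it in profile.

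For each gene, the tested genes with the most similar profile were found from the mean absolute difference of diet-centred values in SD units over 12 arrays. Aldh3a2 was nearest to Me1, the malic enzyme that supplies NADPH, at 0.15 SD, and to Acad11, an acyl-CoA dehydrogenase, at 0.21 SD, where the median over genes was 1.05 SD. Me1 and Acad11 also rose on the low P/S diet (1.17 ± 0.13, adjusted p = 2.12e-05, and 0.43 ± 0.07, adjusted p = 0.000604). Pdk4 was nearest to Jmjd1c (0.27 SD) and Synrg (0.30 SD), Angptl4 to Xylt1 and Mical1, Vnn1 to Sytl2 and Atl3, Bdh1 to Manba and Ankib1, and Creb3l3 to Tor1a and Hif1a. These last 8 genes lay between 0.24 and 0.31 SD from their partner. All the neighbours were picked for closeness on these same arrays, so that closeness is no test of a relation.

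Promoter windows were read from RefSeq (GRCm38.p6) as the 250 bases before to 50 after an annotated start. Of the 7 genes, 5 had such a window, namely Aldh3a2, Pdk4, Creb3l3, Bdh1 and Ucp2. Angptl4 and Vnn1 had none and were not searched. Printed below are windows of the genes that rose and of Creb3l3, which alone among the 5 held a half-site of the PPAR motif. Capitals mark matches to the searched motifs.
Aldh3a2 chr11:61267137-61267436, minus strand: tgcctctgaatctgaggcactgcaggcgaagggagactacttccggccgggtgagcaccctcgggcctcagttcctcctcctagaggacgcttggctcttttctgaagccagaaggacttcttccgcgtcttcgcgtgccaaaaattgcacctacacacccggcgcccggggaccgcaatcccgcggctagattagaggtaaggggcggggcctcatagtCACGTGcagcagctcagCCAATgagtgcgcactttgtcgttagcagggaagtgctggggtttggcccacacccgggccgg
Pdk4 chr6:5496229-5496528, minus strand: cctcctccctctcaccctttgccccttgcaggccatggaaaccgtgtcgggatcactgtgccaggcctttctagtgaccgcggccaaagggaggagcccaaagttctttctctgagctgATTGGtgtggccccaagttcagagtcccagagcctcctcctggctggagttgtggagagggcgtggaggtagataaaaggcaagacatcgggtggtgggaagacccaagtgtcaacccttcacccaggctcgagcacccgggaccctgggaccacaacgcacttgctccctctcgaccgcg
Creb3l3 chr10:81092542-81092841, minus strand: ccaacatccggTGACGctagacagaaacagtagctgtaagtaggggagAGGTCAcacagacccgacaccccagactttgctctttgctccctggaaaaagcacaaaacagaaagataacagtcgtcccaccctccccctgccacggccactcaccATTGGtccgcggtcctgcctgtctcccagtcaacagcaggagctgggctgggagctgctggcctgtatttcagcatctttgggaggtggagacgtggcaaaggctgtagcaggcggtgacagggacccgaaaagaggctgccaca
On either strand, 7 motifs were searched. They were the full PPAR element (a pair of AGGTCA half-sites with a single base between), the half-site AGGTCA alone, which the full element also holds, the E-box CACGTG of clock and other factors, the CCAAT box, the Dbp-type box TTANGTAA, the forkhead box TGTTTAC and the cyclic AMP core TGACG. The Aldh3a2 window held CACGTG, 30 bases before the start, and CCAAT, 13 bases before it. The E-box stands in 7.15% and the CCAAT box in 37.4% of 32817 promoter windows of this length. In the Pdk4 window a reversed CCAAT box 131 bases before the start was the only match. The Creb3l3 window held the half-site AGGTCA, found in 16.3% of windows. It also held a cyclic AMP core, found in 20.8% of windows, and a reversed CCAAT box. In the Ucp2 window a reversed cyclic AMP core 62 bases before the start was the only match. The other Creb3l3 window and both Bdh1 windows held no match. The full PPAR element was in none of the 7 windows of the 5 genes searched and in 0.0396% of all windows. TTANGTAA was in 2.32% and TGTTTAC in 3.65% of all windows. A match is a run of letters, and no match says nothing of the factor.

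Ketone body genes other than Bdh1 were counted in a list of 15, of which 10 were tested. The 6 that rose were Aacs, which activates acetoacetate to acetoacetyl-CoA in the cytosol (1.81-fold, 0.85 ± 0.11, adjusted p = 5.30e-05), the citrate carrier gene Slc25a1 (1.47-fold), the monocarboxylate transporter genes Slc16a6 (1.49-fold), Slc16a1 (1.35-fold, at an intensity of 741 on the low P/S and 550 on the control diet) and Slc16a3 (1.17-fold, not passing with quantile normalization), and Bdh2 (1.16-fold). None fell. The mitochondrial enzymes of ketone body making and use showed small differences, with 0.03 ± 0.05 for the thiolase gene Acat1 (adjusted p = 0.688, and -0.05 with quantile normalization) and -0.06 ± 0.06 for Oxct1, which starts ketone use (adjusted p = 0.508). The list members that moved were transporters and cytosolic enzymes rather than the measured mitochondrial enzymes.

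Among 38 other PPAR targets tested, 25 rose and 3 fell, with a median difference of 0.32. The rises of smallest p, not all the largest in fold, were those of the thioesterase genes Acot1 (4.55-fold) and Acot2 (2.52-fold), the isomerase gene Eci1 (1.49-fold) and the lipid droplet gene Plin2 (2.60-fold). The 3 that fell were the lipase gene Pnpla2, the sulfotransferase gene Sult2b1 and the droplet gene Plin5, the last of which did not pass with quantile normalization or median centring. None of the genes of the 3 receptors passed with diet as the only term and no rescaling. Ppara had an intensity of 513 on the low P/S and 593 on the control diet (-0.21 ± 0.08, adjusted p = 0.055), Ppard 205 on the low P/S and 234 on the control diet (-0.19 ± 0.07, adjusted p = 0.0601) and Pparg 477 on the low P/S and 420 on the control diet (0.19 ± 0.08, adjusted p = 0.0862). With quantile normalization Ppara and Ppard passed as lower (adjusted p = 0.0235 and 0.0264). Of 16 receptor and cofactor genes tested, the coactivator gene Ppargc1a fell to an intensity of 429 on the low P/S diet, against 732 on the control diet (-0.77 ± 0.12, adjusted p = 0.000463), while its relative Ppargc1b rose 1.28-fold and the coactivator and phosphatase gene Lpin1 1.37-fold. The other 13 did not pass, and the count was 2 higher and 8 lower with quantile normalization.

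The partners of Pdk4 around pyruvate dehydrogenase were mixed. Pdk2, the other fasting-responsive kinase of the complex, fell to an intensity of 522 on the low P/S diet, against 751 on the control diet (-0.53 ± 0.09, adjusted p = 0.000932). Pdk1 (1.13-fold) and Pdk3 (1.19-fold) rose, of which Pdk1 did not pass with quantile normalization. Subunit genes of the complex rose too, Pdhx 1.25-fold, Pdha1 1.19-fold, Dld 1.23-fold and Pdhb 1.15-fold, the last not with quantile normalization. In all 6 of 13 rose, 1 fell and 6 did not pass, among them the opposing phosphatase genes Pdp1 and Pdp2 and the pyruvate carrier gene Mpc1 (-0.01 ± 0.05).

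Relatives and partners of the remaining genes were counted in the same way. Of 8 genes of the lipoprotein lipase system, which Angptl4 inhibits, the lipase maturation gene Lmf1 rose 1.15-fold and Apoc3 fell by 0.25 on the log2 scale, though not past the threshold with median centring, and Lpl itself showed 0.08 ± 0.20 (adjusted p = 0.804). In the coenzyme A list, to which Vnn1 returns pantothenate, 6 of 12 rose and 1 fell, led by the pantothenate kinase gene Pank1 (1.56-fold) and the coenzyme A hydrolase gene Nudt7 (1.25-fold), while the vitamin transporter gene Slc5a6 fell by 0.27 on the log2 scale. Quantile normalization left 4 higher and 1 lower. Aldehyde dehydrogenases other than Aldh3a2 split, with 4 of 17 higher and 5 lower. Aldh1a7 (1.63-fold) and Aldh18a1 (1.49-fold) rose, and Aldh4a1, of proline breakdown, fell by 0.57 on the log2 scale. Of the Aldh3b genes, a subfamily beside that of Aldh3a2, Aldh3b1 fell by 0.22 and Aldh3b2 by 0.19 on the log2 scale. Neither passed with median centring, nor Aldh3b2 with quantile normalization. Aldh3a1, of the same subfamily as Aldh3a2, was too dim to test. Among relatives of Creb3l3 and genes of lipid handling linked to it, 4 of 13 rose and 2 fell. The desaturase genes Scd1 (2.44 on the log2 scale), Fads2 (1.35) and Fads1 (0.56) rose, and the cholesterol uptake gene Npc1l1 fell by 0.85 on the log2 scale. The relative Creb3l2 fell by 0.51 on the log2 scale (adjusted p = 9.22e-05) and the site-1 protease gene Mbtps1, whose product cuts such membrane-bound factors, rose 1.34-fold, while Apoa4 showed -0.05 ± 0.09 (adjusted p = 0.72). Of 4 tested carriers related to Ucp2, Slc25a11 and Slc25a30 rose, each 1.31-fold, and 2 did not pass.

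Of 24 tested genes of the fasting, FoxO and glucocorticoid response, 13 fell, none rose and 11 did not pass, at a median of -0.20, and 11 fell with median centring. Of those not passing, Trib1 had a difference of 0.30 and Cebpb of 0.17. Among those that fell were the gluconeogenic gene Pck1, at an intensity of 2421 on the low P/S and 4032 on the control diet (-0.74 ± 0.09, adjusted p = 6.33e-05), the kinase gene Sgk1 (-0.77 ± 0.09), the regulator gene Klf15 (-0.63 ± 0.09) and the insulin receptor substrate gene Irs2 (-0.49 ± 0.07). Foxo1 and Foxo3, whose products drive Pdk4 in fasted tissue, fell by 0.20 and 0.49 on the log2 scale. In the clock list 10 of 16 fell and 2 rose, and Per1 stands in both lists.

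**Figure D4:**
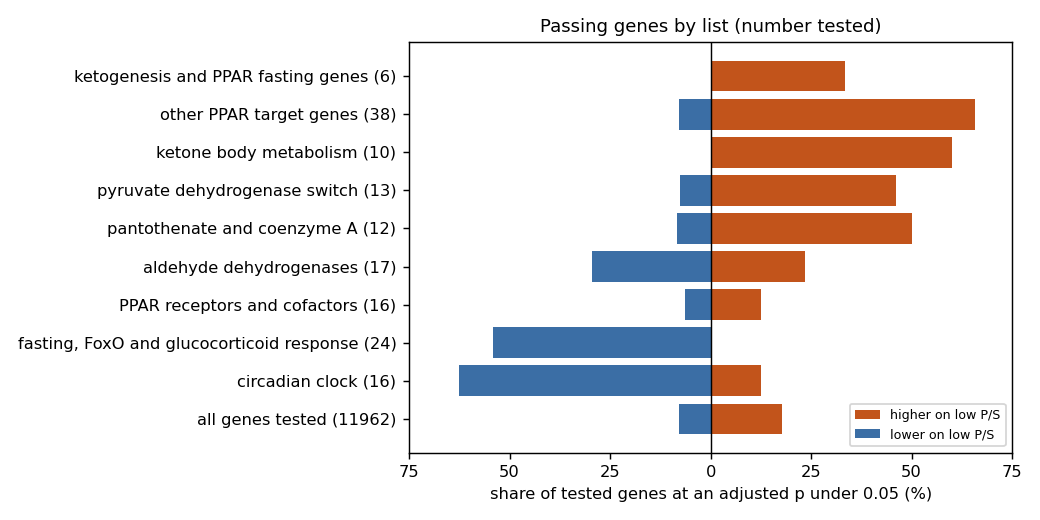
Share of the tested genes in each list that passed at an adjusted p under 0.05, higher on the low P/S diet to the right and lower to the left, with the number tested in brackets and all 11962 genes in the bottom row. PPAR targets and ketone body genes extend mainly to the right, as do the pyruvate dehydrogenase and coenzyme A lists. The fasting, FoxO and glucocorticoid and clock lists extend mainly to the left.

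The tissue carried enterocyte transcripts on either diet, with Fabp2 at 9724 on the low P/S and 9793 on the control diet. Of 15 enterocyte markers 7 fell and 1 rose, and the summed intensity of all markers found was 85459 to 98502 on the low P/S and 92610 to 122753 on the control diet. With quantile normalization 9 enterocyte markers fell and 1 rose, and with median centring 5 fell and none rose. Of 11 proliferation markers 9 rose, and the summed intensity was 4299 to 5731 on the low P/S and 2913 to 4595 on the control diet. Of 9 macrophage and dendritic cell markers 8 rose (1564 to 1958 on the low P/S and 1322 to 1467 on the control diet), of 4 B and plasma cell markers 2 rose (2385 to 3390 on the low P/S and 1760 to 2123 on the control diet), and of 7 T cell markers 4 fell (1294 to 1833 on the low P/S and 1705 to 2148 on the control diet). Of the T cell markers 6 fell with quantile normalization. Adipose markers, of a tissue that expresses Pdk4 and Angptl4, summed to 1145 to 2327 on the low P/S and 1231 to 2819 on the control diet. The only adipose marker of 6 to pass was the lipase gene Lipe, which fell, though not past the threshold with median centring, and Retn, Lep and Cidea were too dim to test. None of 12 smooth muscle (6967 to 9887 on the low P/S and 8589 to 12139 on the control diet), 3 exocrine pancreas (648 to 734 on the low P/S and 669 to 749 on the control diet) and 3 hepatocyte markers (671 to 1295 on the low P/S and 689 to 1088 on the control diet) passed in limma. All these sums run over every marker found, also those too dim to test. Too dim were 6 of 9 exocrine pancreas, 6 of 9 hepatocyte and 5 of 9 B and plasma cell markers. So were 4 of 11 T cell, 3 of 12 macrophage and dendritic cell and 3 of 9 adipose markers. The part of such cell types in the results was not tested.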

How the data were processed

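The deposited table gives a linear intensity for each of 34760 probe sets on every array. The authors' summarization, background correction and scaling are not given in the sources used here. Per the labels' protocols, 500 ng of total RNA was labelled with the Affymetrix whole-transcript sense kit without ribosomal RNA reduction. Array medians lay between 91.9 and 99.5, and values between 17.7 and 20294. Precision is limited by there being 6 arrays a diet.

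The 21640 probe sets naming 1 symbol gave 19937 genes. After log2, 7975 dim genes (mean level under the 40th percentile, 85.6) were left out. Diets were compared with limma 3.58.1 in R 4.3.3 (lmFit, eBayes, two-sided, diet as the only term). Relations used 100000 permutations within diets. Python 3.11.15, NumPy 2.4.6, SciPy 1.17.1, pandas 2.3.3 and matplotlib 3.10.9 were used. In simulated data with 11962 genes, 26 of 50 differences of 0.25, 45 of 50 of 0.5 and 50 of 50 of 1 were recovered. They were planted in randomly drawn genes with independent normal noise, and 15 of 186 calls were false. Pdk4, Angptl4 and Vnn1 spread more within diets than most genes, so these shares do not carry over to them.

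The 7 genes and the 20 lists (305 symbols, 280 found, 234 tested) were chosen with earlier results of these data known. Named genes were all members, the 2 nearest profiles of each and up to 4 genes of smallest p per pathway list. Any tested ketone body, receptor or pyruvate dehydrogenase gene could be named, and some were not. Pnpla2, Sult2b1, Plin5, Foxo1, Foxo3, Aldh3a1, Aldh3b1, Aldh3b2, Aldh18a1, Apoa4, Lpl, Scd1, Mbtps1, Trib1, Cebpb, Fabp2, Lipe, Retn, Lep and Cidea stand outside that rule and were chosen after their values were seen. The 15 tests of unequal differences between members were added after seeing the data.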

Additional observations from a re-analysis of the deposited data

How the results depend on the processing

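The 6 differences stayed positive under quantile normalization, median centring, other filters, probe-set averaging, array weights, other variance priors, a pseudocount of 16, subtraction of 15, the replicate block and every omission of arrays tried. Aldh3a2 passed under all 24 alternatives, and Angptl4 and Creb3l3 under none. Without single arrays Aldh3a2 ranged from 0.58 to 0.72, Angptl4 from 0.03 to 0.23 and Creb3l3 from 0.05 to 0.14. Creb3l3 shrank to 0.01 with quantile normalization (adjusted p = 0.91 in limma), and Angptl4 was 0.28 without control arrays 1 and 2.

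Pdk4 did not pass with quantile normalization (0.50, adjusted p = 0.0651), no filter (0.60, adjusted p = 0.0602), a trended robust prior (0.60, adjusted p = 0.0973) or an ordinary variance (0.60, adjusted p = 0.123), and ranged from 0.48 to 0.74 without single arrays. Bdh1 passed without control arrays 1 and 2 (0.20, adjusted p = 0.0207) and ranged from 0.12 to 0.18 without single arrays. Vnn1 passed without control arrays 1 and 2 (0.49) and ranged from 0.17 to 0.38. Those 2 arrays were chosen because their values lay nearest the low P/S arrays, which favours larger differences, so these calls are no support. The cause of the other changes was not tested.

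Arrays share replicate numbers between diets, but deviations of same-numbered arrays correlated at 0.19, 0.09, 0.42, -0.11, -0.07 and 0.31 over genes, so the numbers were not taken as pairs, and not every array matched its own number best. With the replicate block 3530 genes passed in place of 3074, Pdk4 passed at an adjusted p of 0.00117, and Bdh1 passed (0.15, adjusted p = 0.0319). Ppara and Ppard then passed as lower and Pparg as higher (adjusted p = 0.0341, 0.0474 and 0.0427), the receptor list held 4 higher and 4 lower, and all 7 T cell markers were lower.

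Quantile normalization gave 1543 lower genes. Without the 2 farthest arrays, 2 member pairs passed in place of 1, adding Angptl4 and Vnn1 (r = 0.78), and 0 of 6 relations to Dbp in place of 3. By the same step Angptl4 and Creb3l3 turned to r = -0.076. Quantile normalization turned Bdh1 and Creb3l3 to r = -0.43, Bdh1 and Aldh3a2 to r = -0.020 and Dbp and Creb3l3 to r = 0.24.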
